A study of Mus musculus with 9 samples.

Results

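The genes described here are 8 receptor genes through which mouse blood cells bind antibody or sense related ligands. They are Fcer1a, Ms4a2 and Fcer1g, which encode the alpha, beta and gamma chains of the high-affinity IgE receptor, the IgG receptor genes Fcgr1, Fcgr2b, Fcgr3 and Fcgr4, and Cd200r3, an activating receptor of the CD200 receptor family. They were taken by gene symbol from a table of 17266 genes, a choice made with earlier results of these data known, and all 8 were present and high enough to be tested.

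RNA came from bone marrow of untreated female C57B/6 mice aged 6 weeks. Cells without lineage markers were isolated on magnetic beads and infected with a retrovirus. They were kept for 5 days in RPMI with IL-3, IL-6 and SCF, sorted for GFP and profiled by bulk poly A RNA sequencing. The virus carried MigR1-IRES-GFP alone (empty vector), ETV6-NCOA2 or KAT6A-NCOA2, fusions of a blood cell transcription factor or a histone acetyltransferase gene with the nuclear receptor coactivator gene NCOA2. Each of these 3 groups has 3 libraries. All groups went through infection, cytokine culture and the GFP sort, so the empty vector cells are a control for the virus and the culture. The labels do not say whether replicates are separate animals, infections or cultures, so that the p-values reflect how far these libraries lie apart, and that spread may be technical.

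Fc receptors link antibodies to cells. On mouse mast cells and basophils the IgE receptor is built from an alpha chain that binds IgE, a beta chain that amplifies the signal and a dimer of gamma chains that carries the signalling motif, and crosslinking by antigen releases histamine and lipid mediators. The gamma chain is also the signalling partner of the activating IgG receptors of macrophages and other myeloid cells, whereas the receptor encoded by Fcgr2b needs no gamma chain and inhibits activation. Cd200r3 is found on mouse mast cells and basophils and signals through the adaptor DAP12, the product of Tyrobp.

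The libraries held between 17.1 and 20.4 M reads over the genes of the table, as recovered from the deposited values. On the first principal component, with 51.2% of the variance over tested genes, the libraries lay between -51.95 and -14.38 for empty vector, between -13.37 and 7.70 for ETV6-NCOA2 and between 20.67 and 42.98 for KAT6A-NCOA2. Replicate 1 had the lowest score in each group. Despite the lineage depletion at the start, macrophage transcripts were abundant after culture. The 13 monocyte and macrophage markers summed to between 291092 and 372989 normalized counts in the 9 libraries, and Lyz2, a lysozyme gene of myeloid cells, averaged 136355 in empty vector cells. Stem and progenitor markers summed to between 6676 and 12145.

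Fcer1a, Ms4a2 and Cd200r3, the 3 members that differed most between the groups, lie on different chromosomes. In GRCm38 with the GENCODE M21 annotation Fcer1a occupies chr1:173221284-173227214 on the minus strand, Ms4a2 chr19:11615523-11623719 on the minus strand and Cd200r3 chr16:44943678-44981380 on the plus strand. Their promoters are shown because Gata1 and Gata2, transcription factor genes of mast cells whose products bind GATA motifs, are described further on. Against empty vector Gata2 was called lower with KAT6A-NCOA2 only, and Gata1 was not called with either fusion. Whether either factor acts at these promoters was not tested. The 250 bases before each RefSeq start site on GRCm38.p6 are given 5′ to 3′ on the gene's own strand, namely chr1:173227230-173227479 for Fcer1a, chr19:11623720-11623969 for Ms4a2 and chr16:44943428-44943677 for Cd200r3. Capitals mark GATA motifs on either strand, meaning AGATAA or its variant ending in G, which is AGATAG, and the same pair with T as the first letter, which is TGATAA or, with the G ending, TGATAG.
Fcer1a: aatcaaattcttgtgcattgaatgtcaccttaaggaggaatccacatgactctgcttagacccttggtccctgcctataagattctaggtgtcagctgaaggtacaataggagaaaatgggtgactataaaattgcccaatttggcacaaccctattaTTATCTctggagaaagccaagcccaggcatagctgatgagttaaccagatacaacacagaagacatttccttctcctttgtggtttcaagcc
Ms4a2: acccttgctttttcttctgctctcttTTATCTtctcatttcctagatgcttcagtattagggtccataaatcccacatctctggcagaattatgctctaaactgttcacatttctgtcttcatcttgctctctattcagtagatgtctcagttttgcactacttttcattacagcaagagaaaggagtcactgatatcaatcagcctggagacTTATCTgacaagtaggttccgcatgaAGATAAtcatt
Cd200r3: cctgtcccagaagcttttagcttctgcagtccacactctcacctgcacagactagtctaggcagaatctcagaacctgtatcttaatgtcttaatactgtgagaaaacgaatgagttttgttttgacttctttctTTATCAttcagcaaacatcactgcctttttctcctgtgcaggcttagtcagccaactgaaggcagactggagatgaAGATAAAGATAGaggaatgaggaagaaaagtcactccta
The Fcer1a promoter held 1 such motif, at positions -92 to -87 from the start. The Ms4a2 promoter held 3, the nearest at positions -11 to -6, and the Cd200r3 promoter held 3, of which 2 lie next to each other from position -39 to -28. Among the other members the Fcgr4 promoter held 1, and the windows of Fcer1g, Fcgr1, Fcgr2b and Fcgr3 held none. Of 32851 RefSeq mouse promoters of the same length, 26.5% held at least 1. The windows are not alike in place. Counted per transcript, that of Fcgr2b overlapped 6 annotated exons of its own gene, and the 2 of Fcgr3 overlapped 1 and 3. Those of Fcer1g and Fcgr4 overlapped 1 each, and those of Fcer1a, Ms4a2, Cd200r3 and Fcgr1 overlapped 0.

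GAGGAA, a core of the motif bound by PU.1 (a myeloid transcription factor), was in the windows of Fcer1a, Fcgr1, Fcgr3, Fcgr4 and Cd200r3 on either strand, and in 23.3% of all promoters. Its first copy at Cd200r3, from position -28 to -23, overlaps the last GATA motif by 1 base. An E-box, searched as CAGCTG and in the forms with other middle letters, CACGTG and likewise the form CACATG, was found at Fcer1a among the members and in 28.3% of all promoters, and a STAT motif (TTCNNNGAA) at Fcgr1 and in 7.02%. These matches describe letters in a window and not sites of binding.

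The genes of the alpha and beta chains of the IgE receptor were both lower with either fusion. Fcer1a had 2668, 1167 and 1419 normalized counts in the 3 empty vector libraries, 660.4, 427 and 373 with ETV6-NCOA2, and 418, 204 and 159 with KAT6A-NCOA2. Each library with a fusion lay below the lowest empty vector library, while the fusion groups overlapped each other. The group means were 1751 ± 804, 487 ± 153 and 260.2 ± 138 (SD, n = 3). With ETV6-NCOA2 Fcer1a fell 3.47-fold (log2 fold change -1.80 ± 0.38 SE, limma adjusted p = 0.036), and with KAT6A-NCOA2 it fell 6.86-fold (-2.78 ± 0.38, adjusted p = 0.00092).

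Ms4a2, the beta chain gene, followed the same order of groups. It had 6844, 3280.0 and 4813 normalized counts in empty vector cells, 2149.6, 1505 and 1179 in ETV6-NCOA2 cells, and 1175, 659 and 464 in KAT6A-NCOA2 cells. No library of one group reached into another, so that the 3 groups were separate. The means were 4979 ± 1788, 1611 ± 494 and 766 ± 368 (SD, n = 3). Ms4a2 fell 3.05-fold with ETV6-NCOA2 (-1.61 ± 0.35 SE, limma adjusted p = 0.038) and 6.69-fold with KAT6A-NCOA2 (-2.74 ± 0.35, adjusted p = 0.0007).

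Cd200r3 also fell with both fusions. It had 3343, 1728 and 2019 normalized counts in empty vector cells, 885, 657 and 477 in ETV6-NCOA2 cells, and 1014.5, 472 and 385 in KAT6A-NCOA2 cells. The empty vector libraries again lay above the other 6, and the fusion groups covered nearly the same range. The means were 2363 ± 861, 673 ± 204 and 624 ± 341 (SD, n = 3), a fall of 3.47-fold with ETV6-NCOA2 (-1.80 ± 0.36 SE, limma adjusted p = 0.031) and of 3.98-fold with KAT6A-NCOA2 (-1.99 ± 0.36, adjusted p = 0.0035). In bulk RNA, fewer cells of a type and less RNA per cell cannot be told apart, which holds for each value given here.

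The falls with ETV6-NCOA2 were near the threshold and rested on particular libraries. The calls of Fcer1a, Ms4a2 and Cd200r3 were each lost without empty vector replicate 1 or 3 or without ETV6-NCOA2 replicate 2 or 3, with adjusted p between 0.0853 and 0.151. They were also lost without KAT6A-NCOA2 replicate 2, which enters through the shared estimate of spread (0.0593, 0.0665 and 0.0502). Their log2 fold changes stayed between -2.04 and -1.35 when any library was left out. The falls with KAT6A-NCOA2 were called in all 20 alternatives, at adjusted p of at most 0.0208.

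**Figure D1:**
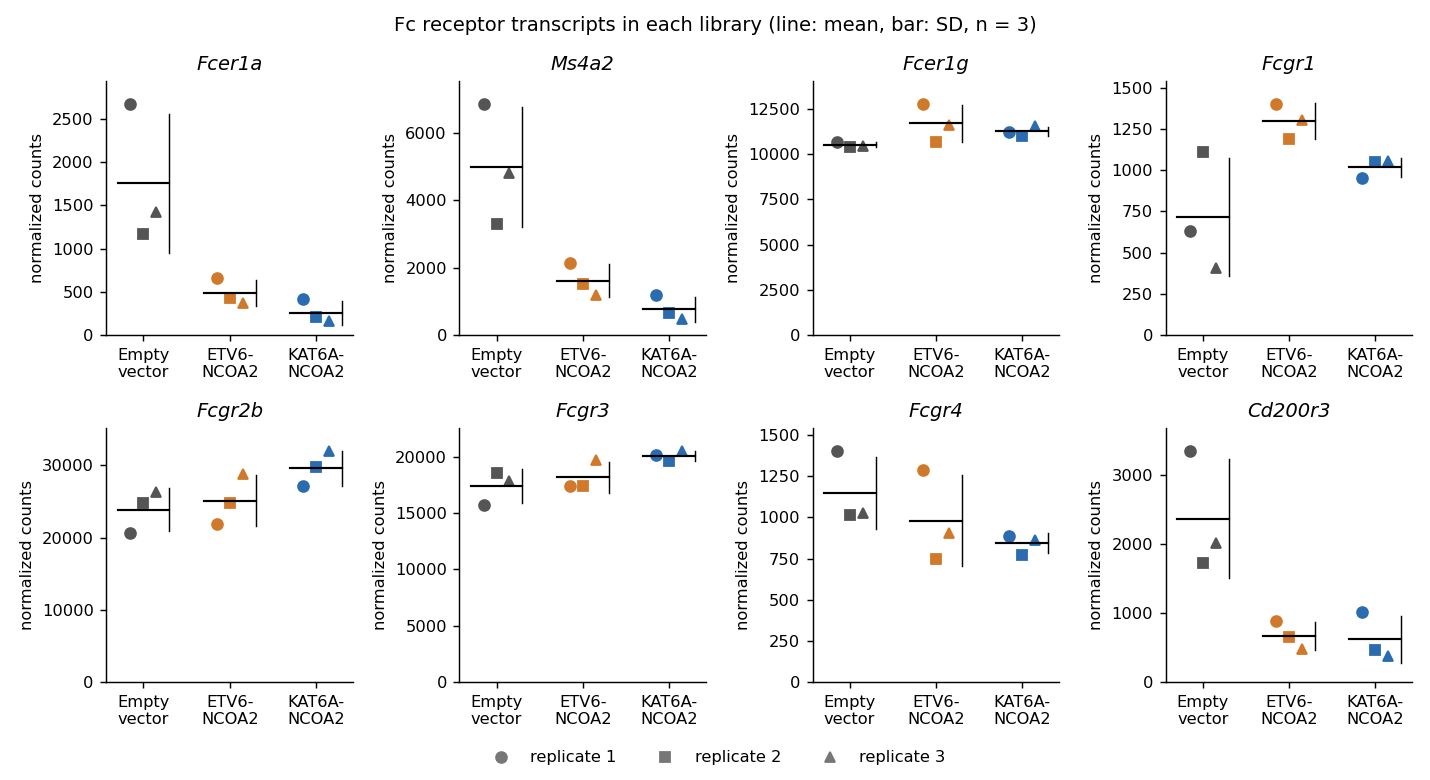
Normalized counts of each member (vertical axes, from 0) in the 9 libraries, by group, with marker shapes for replicate numbers, lines for group means and bars for SD (n = 3). Fcer1a, Ms4a2 and Cd200r3 are higher in each empty vector library than in any fusion library, whereas Fcer1g stays between 10394 and 12748 throughout.

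Of the 8 members, these 3 fell with ETV6-NCOA2, 0 rose and 5 were not called, where 2.84% of all tested genes were called (1.02% higher and 1.82% lower). With KAT6A-NCOA2 Fcer1a, Ms4a2 and Cd200r3 fell, 0 rose and 5 were not called, where 25.4% of all tested genes were called (11.6% higher and 13.7% lower). Both comparisons use the same empty vector libraries, so they are not independent of each other. Groups did not overlap for 5 members with ETV6-NCOA2 (3 lower, 2 higher), against 21.5% of all tested genes (12.5% lower, 9.01% higher), and for 7 members with KAT6A-NCOA2 (4 lower, 3 higher), against 42.9% (21.7% lower, 21.2% higher).

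The fusions were also compared with each other. By limma no member was called between ETV6-NCOA2 and KAT6A-NCOA2, where 3.09% of all tested genes were called (2.84% higher, 0.247% lower). DESeq2, edgeR and limma-voom called no member either. Before adjustment the limma p was 0.025 for Fcer1a and 0.0078 for Ms4a2. How many of all tested genes reach such values was not counted. The value for ETV6-NCOA2 over KAT6A-NCOA2 was 0.98 ± 0.38 SE for Fcer1a (95% interval 0.15 to 1.82, adjusted p = 0.2) and 1.13 ± 0.35 for Ms4a2 (0.37 to 1.90, adjusted p = 0.11). Groups did not overlap for 2 members, Ms4a2 and Fcgr1, both higher with ETV6-NCOA2, against 27.2% of all tested genes (14.4% higher, 12.8% lower). Ms4a2 passed the test without KAT6A-NCOA2 replicate 1 (1.5, adjusted p = 0.0322).

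The labels do not say whether equal replicate numbers are pairs. Libraries of these 2 groups with the same number deviated together across genes (correlations 0.30, 0.20 and 0.29). Unequal numbers were not correlated, so these correlations cannot settle the pairing. The paired values that follow hold only if equal numbers are pairs. The log2 difference between libraries with the same number was 0.66, 1.06 and 1.23 for Fcer1a and 0.87, 1.19 and 1.34 for Ms4a2. In each pair the ETV6-NCOA2 library was the higher one for both chains. A limma fit of all 9 libraries took the replicate number as a block. This blocked the empty vector libraries as well, although their number 3 did not deviate with that of the fusions (correlations -0.08 and -0.03). The blocked fit called Fcer1a (adjusted p = 0.0026) and Ms4a2 (adjusted p = 0.0051) higher with ETV6-NCOA2. In that fit 7.15% of all tested genes were called (5.32% higher, 1.83% lower). With the block and only the 6 fusion libraries, an alternative added after seeing the data, the limma adjusted p was 0.0016 and 0.000302. For Cd200r3 the pair differences were -0.20, 0.48 and 0.31, with no common direction, and the unpaired difference of 0.20 ± 0.36 SE had a 95% interval from -0.59 to 0.99. Fcgr1 was higher with ETV6-NCOA2 in each pair (0.56, 0.18 and 0.31), while Fcgr2b (-0.31, -0.27 and -0.15) and Fcgr3 (-0.21, -0.17 and -0.06) were lower in each. These 3 were not called with the block on all 9 libraries, and Fcgr1 was called in fits of the 6 fusion libraries, at an adjusted p of 0.0384 without the block and of 0.0195 with it.

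The IgE receptor chains kept similar proportions in each library. Per kb of exon, Ms4a2 stood to Fcer1a at a ratio of 0.91, 0.997 and 1.203 in empty vector cells, 1.155, 1.25 and 1.121 in ETV6-NCOA2 cells, and 0.999, 1.15 and 1.04 in KAT6A-NCOA2 cells. The ratio thus stayed near 1 while the level of each chain differed several-fold, and the groups overlapped. That value depends on the length used. Per kb of the longest transcript, the means of Ms4a2 and Fcer1a were 2082 and 1755 in empty vector cells. They were 674 and 488 in ETV6-NCOA2 cells, and 320 and 261 in KAT6A-NCOA2 cells. Cd200r3 did not keep its proportion to Fcer1a. That ratio was 0.209, 0.247 and 0.237 in empty vector cells, 0.2235, 0.257 and 0.213 in ETV6-NCOA2 cells, and 0.405, 0.386 and 0.4035 in KAT6A-NCOA2 cells. The 3 KAT6A-NCOA2 libraries were above the other 6. The ratios are given as a description and were not tested. An exact permutation test of 3 against 3 libraries gives a two-sided p of 0.1 at the smallest.

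**Figure D2:**
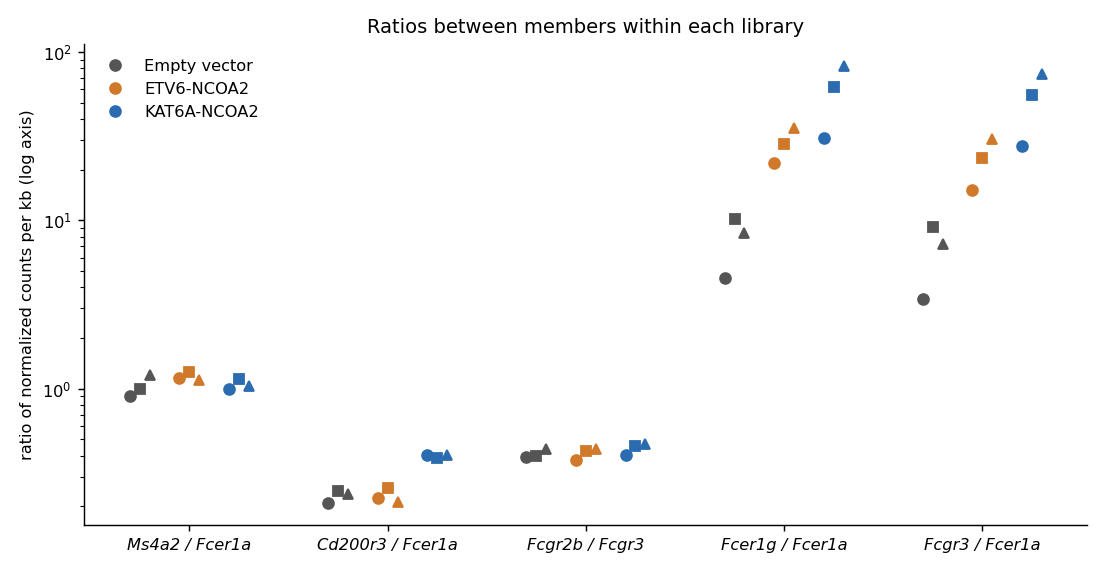
Ratios of normalized counts per kb between members (log axis) in each library, coloured by group. Ms4a2 to Fcer1a stays between 0.91 and 1.25, Cd200r3 to Fcer1a is near 0.398 with KAT6A-NCOA2 and 0.231 in the other groups, and the ratio of the gamma chain gene Fcer1g to Fcer1a runs from 4.57 to 82.8.

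Fcer1g, the gamma chain gene that IgE and IgG receptors share, differed little between groups. It had 10666, 10394 and 10456 normalized counts in empty vector cells, 12748, 10676 and 11616 in ETV6-NCOA2 cells, and 11226, 10995 and 11522 in KAT6A-NCOA2 cells. Each fusion library was above each empty vector library, by a margin that was small beside the level. The difference was 0.15 ± 0.08 SE on the log2 scale with ETV6-NCOA2 (95% interval -0.03 to 0.33, limma adjusted p = 0.34) and 0.10 ± 0.08 with KAT6A-NCOA2 (-0.09 to 0.28, adjusted p = 0.42), and neither was called. The ratio of Fcer1g to Fcer1a per kb was 7.72 ± 2.87 in empty vector cells, 28.7 ± 6.75 in ETV6-NCOA2 cells, and 58.3 ± 26.2 in KAT6A-NCOA2 cells (SD, n = 3). Gamma chain transcripts were thus in excess over alpha chain transcripts in each library, from 4.57 times to 82.8 times.

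The genes Fcgr2b, Fcgr4 and Fcgr3 lie beside one another on chromosome 1 at chr1:170958617-170976547 (minus strand), chr1:171018920-171029761 (plus) and chr1:171051174-171064935 (minus). Gaps of 42.4 and 21.4 kb part them, and Fcer1g follows at chr1:171229572-171234365 (minus) after a further 165 kb. Fcgr1 lies apart at chr3:96282909-96293969 (minus). Fcgr2b and Fcgr3 have nearly the same extracellular sequence, with 96.5% identity over 509 aligned coding bases. Their longest identical stretch is shown because a read from within it cannot be placed by its sequence. It covers 129 bases, coding positions 278 to 406 of Fcgr2b and 263 to 391 of Fcgr3, read 5′ to 3′ on the coding strand across an exon junction.
Fcgr2b and Fcgr3: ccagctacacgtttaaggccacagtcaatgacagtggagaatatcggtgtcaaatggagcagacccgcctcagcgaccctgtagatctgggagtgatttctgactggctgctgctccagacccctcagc
Of the 50-base windows of all exons, 9.58% of those of Fcgr3 occur also in Fcgr2b, and 2.92% of those of Fcgr2b occur in Fcgr3. How such reads were assigned is not given in the sources used here, so the values of these 2 genes are uncertain to that extent.

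In the fit of all 9 libraries without a block, the IgG receptor genes were not called in any of the 3 comparisons. Fcgr2b, the inhibitory receptor, had 20565, 24731 and 26261 normalized counts in empty vector cells, 21825, 24735 and 28795 in ETV6-NCOA2 cells, and 27065, 29724 and 31939 in KAT6A-NCOA2 cells. The KAT6A-NCOA2 libraries were all above the empty vector libraries, and the other pairs of groups overlapped. The difference was 0.07 ± 0.14 SE with ETV6-NCOA2 (95% interval -0.23 to 0.38, limma adjusted p = 0.82) and 0.31 ± 0.14 with KAT6A-NCOA2 (0.01 to 0.62, adjusted p = 0.12).

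Fcgr3, an activating receptor of low affinity, had 15733, 18563 and 17876 normalized counts in empty vector cells, 17364, 17403 and 19698 in ETV6-NCOA2 cells, and 20120.0, 19632 and 20478 in KAT6A-NCOA2 cells. Here too the KAT6A-NCOA2 libraries were above those with empty vector. The difference was 0.06 ± 0.10 SE with ETV6-NCOA2 (-0.16 to 0.28, limma adjusted p = 0.77) and 0.21 ± 0.10 with KAT6A-NCOA2 (-0.01 to 0.43, adjusted p = 0.15). Per kb, Fcgr2b stood to Fcgr3 at 0.411 ± 0.0261, 0.414 ± 0.0325 and 0.442 ± 0.0339 in the 3 groups (SD, n = 3), so the inhibitory and the activating gene kept their proportion within the spread between libraries.

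Fcgr1, the high-affinity IgG receptor, was the most variable of this group in the control cells. It had 632, 1111 and 408 normalized counts in empty vector cells, 1401, 1188 and 1306 in ETV6-NCOA2 cells, and 953, 1049 and 1055 in KAT6A-NCOA2 cells. Each ETV6-NCOA2 library was above all others, while the KAT6A-NCOA2 libraries lay below empty vector replicate 2 and above the other 2 control libraries. The difference was 0.97 ± 0.27 SE with ETV6-NCOA2 (95% interval 0.38 to 1.57, limma adjusted p = 0.078) and 0.63 ± 0.27 with KAT6A-NCOA2 (0.03 to 1.22, adjusted p = 0.11). The control libraries decided this result. Without empty vector replicate 2 Fcgr1 was called higher with ETV6-NCOA2 (1.35, adjusted p = 0.00185) and with KAT6A-NCOA2 (1.00, adjusted p = 0.000985), and DESeq2 called it with ETV6-NCOA2 on all libraries (0.86, adjusted p = 0.0196). Without empty vector replicate 3 the differences were 0.63 (adjusted p = 0.154) and 0.28 (adjusted p = 0.339).

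Fcgr4, an activating receptor that in mice also binds some forms of IgE, pointed the other way. It had 1400.3, 1014 and 1025 normalized counts in empty vector cells, 1284, 749 and 905 in ETV6-NCOA2 cells, and 889, 773 and 863 in KAT6A-NCOA2 cells. The KAT6A-NCOA2 libraries were below those with empty vector, and the ETV6-NCOA2 libraries spread over both ranges. The difference was -0.25 ± 0.18 SE with ETV6-NCOA2 (-0.65 to 0.15, limma adjusted p = 0.48) and -0.43 ± 0.18 with KAT6A-NCOA2 (-0.83 to -0.03, adjusted p = 0.11). Without ETV6-NCOA2 replicate 1 the latter was called (adjusted p = 0.0353), as it was in a fit of the 6 libraries compared (adjusted p = 0.042).

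**Figure D3:**
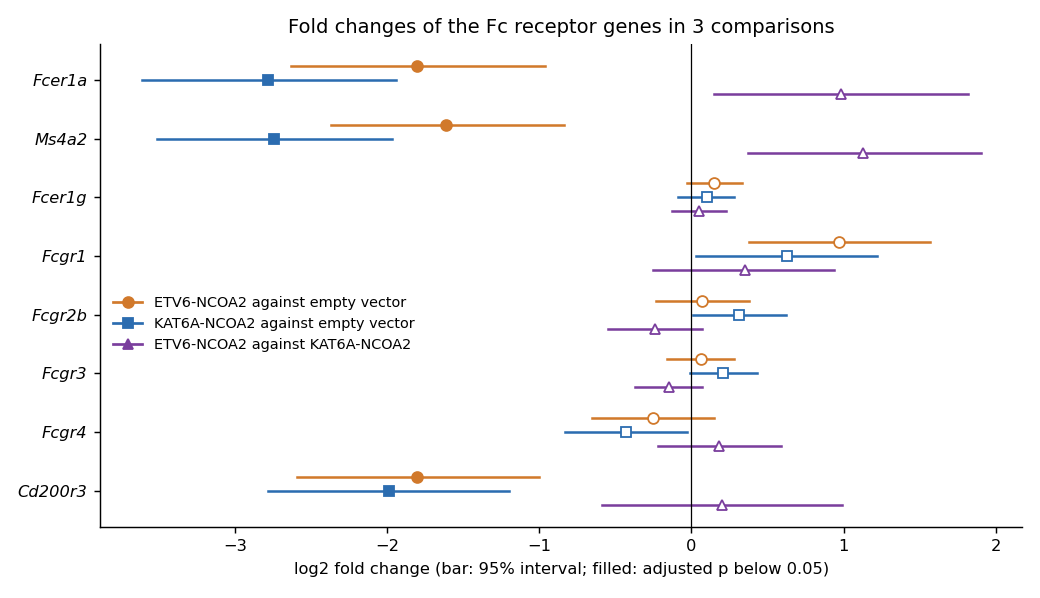
Log2 fold changes of the 8 members in the 3 comparisons, with 95% intervals from limma and filled markers for adjusted p below 0.05. Fcer1a, Ms4a2 and Cd200r3 lie between -1.61 and -2.78 against empty vector, and the shared gamma chain and the IgG receptor genes lie between -0.43 and 0.97 with open markers.

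Levels of different genes can be set side by side per kb of exon. In empty vector cells the order was Fcer1g (12020.1 ± 163 normalized counts per kb, SD, n = 3), Fcgr3 (10018 ± 850.4), Fcgr2b (4119.6 ± 509), Ms4a2 (1770.0 ± 636), Fcer1a (1755 ± 805), Fcgr4 (913 ± 175), Cd200r3 (395 ± 144) and Fcgr1 (277 ± 139). The means of Ms4a2 and Fcer1a, of Fcer1a and Fcgr4, and of Cd200r3 and Fcgr1 were closer than the sum of their SDs. The first 3 places were the same in each group. With ETV6-NCOA2 Fcgr4 (779.8 ± 219) came next, followed by Ms4a2 (573 ± 176), Fcgr1 (502 ± 41.2) and Fcer1a (488 ± 153), of which no neighbours differed beyond their spread, and then Cd200r3 (112 ± 34.2).

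With KAT6A-NCOA2 the lower places were held by Fcgr4 (670.0 ± 48.6 normalized counts per kb), Fcgr1 (394 ± 22.1), Ms4a2 (272 ± 131), Fcer1a (261 ± 138) and Cd200r3 (104 ± 57.0). Of these, Fcgr4 and Fcgr1 were the only neighbours that differed by more than the sum of their SDs. Among 13421 genes ranked per kb, Fcer1a stood at place 358 in empty vector cells, 1618 in ETV6-NCOA2 cells, and 2992 in KAT6A-NCOA2 cells, whereas Fcer1g stood at 52, 48 and 52. Dividing by the longest transcript instead of the union of exons left the order within each group the same, and raised the empty vector level of Fcgr2b to 6730.4 and of Cd200r3 to 609.7 (normalized counts per kb).

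Some markers of the cells that carry the IgE receptor fell together with Fcer1a, Ms4a2 and Cd200r3, and others were not called. Of 12 mast cell markers, 3 fell and 0 rose with ETV6-NCOA2, where 1.82% of all tested genes were called lower. With KAT6A-NCOA2 9 of these 12 fell and 0 rose, where 13.7% of all tested genes were called lower. The summed level of the 12 markers ran from 91198 to 137058 normalized counts in empty vector cells, from 49842 to 65924 in ETV6-NCOA2 cells and from 36060.5 to 52099 in KAT6A-NCOA2 cells. Hdc, which makes histamine, had log2 fold changes of -1.82 (limma adjusted p = 0.019) and -2.26 (adjusted p = 0.00097). Il1rl1, the IL-33 receptor, had -1.27 (0.038) and -2.33 (0.00048). With KAT6A-NCOA2 the mast cell proteases Cma1 (-2.88, adjusted p = 0.00065) and Cpa3 (-2.45, adjusted p = 0.0014) fell as well, while with ETV6-NCOA2 their values of -1.45 and -1.06 were not called. Srgn, a granule proteoglycan, was not called with either (-0.26 and -0.19), and Slc18a2, which loads amines into granules, had -0.04 with ETV6-NCOA2 and fell with KAT6A-NCOA2 (-1.17, adjusted p = 0.0025).

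Of 11 basophil markers, 2 fell with ETV6-NCOA2, where 1.82% of all tested genes were called lower. With KAT6A-NCOA2 4 fell and 1 rose, where 13.7% of all tested genes were called lower and 11.6% higher. Summed, the 11 markers ran from 19810 to 39498 normalized counts in empty vector cells, from 12003 to 15286 in ETV6-NCOA2 cells and from 11754 to 12500 in KAT6A-NCOA2 cells. Prss34, a basophil protease, had log2 fold changes of -3.90 (limma adjusted p = 0.008) and -4.29 (adjusted p = 0.00061), and Mcpt8, another, had -3.14 (0.021) and -3.50 (0.0019). With KAT6A-NCOA2 Cyp11a1, a steroid enzyme, fell (-2.60, adjusted p = 0.00076), as did the cytokine gene Il4 (-1.53, adjusted p = 0.024), and the growth factor gene Csf1 rose (0.63, adjusted p = 0.01). Il3ra, a receptor chain for IL-3, was not called (0.10 and 0.04). No mast cell or basophil marker was at 0 in all libraries of a group. The part that the number of these cells has in the Fc receptor result was not tested.

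The macrophage markers gave a different picture. Of 13, 1 rose and 1 fell with ETV6-NCOA2, where 2.84% of all tested genes were called. With KAT6A-NCOA2 3 rose and 2 fell, where 25.4% of all tested genes were called. The summed level of the 13 markers overlapped between the groups, from 336675 to 355856, from 291092 to 353715 and from 325313 to 372989 normalized counts. Cd14, an endotoxin coreceptor, rose with both fusions (0.57, limma adjusted p = 0.049, and 0.86, adjusted p = 0.0016). The chemokine receptor gene Ccr2 fell with both (-1.15, 0.0094, and -1.22, 0.00097), and with KAT6A-NCOA2 the monocyte gene Ly6c2 fell (-2.60, adjusted p = 0.0012) and Mertk, which clears dying cells, rose (0.45, adjusted p = 0.014).

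**Figure D4:**
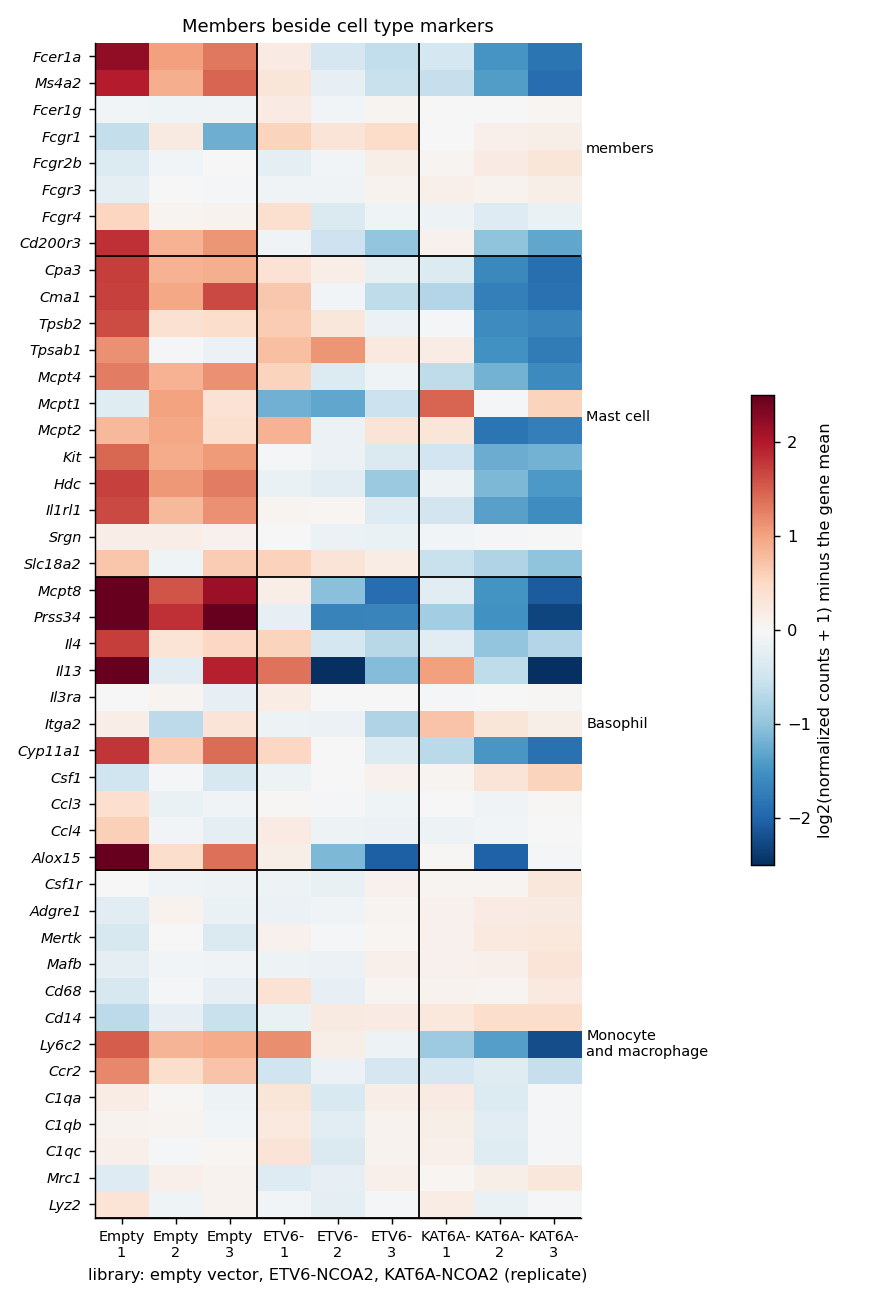
Log2(normalized counts + 1) of the members and of tested mast cell, basophil and macrophage markers in each library, minus each gene's mean over the 9 libraries, with colours that saturate at the ends of the scale. Fcer1a, Ms4a2, Cd200r3, Hdc, Prss34 and Mcpt8 are red in the 3 empty vector libraries, and most macrophage markers are pale throughout. Not all mast cell and basophil markers are red there. Srgn and Il3ra are pale, and Csf1 has its highest group mean with KAT6A-NCOA2.

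The other marker lists are given as counts. Beside them, 2.84% of all tested genes were called with ETV6-NCOA2 and 25.4% with KAT6A-NCOA2. With ETV6-NCOA2 and KAT6A-NCOA2 in turn, 0 and 4 of 11 dendritic cell markers rose and 0 and 1 fell, 0 and 1 of 10 neutrophil markers rose and 3 and 8 fell, and 1 and 1 of 5 eosinophil markers rose and 3 and 3 fell. Of 3 NK cell markers 2 and 0 rose and 0 and 1 fell, and of 2 B cell markers none was called. Of 4 T cell markers 0 rose and 1 and 2 fell, of 7 megakaryocyte and platelet markers 0 and 1 rose and 0 fell, and of 9 stem and progenitor markers 0 and 2 rose and 1 and 3 fell.

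Likeness between genes was measured as the root mean square difference of their log2 profiles over the 9 libraries, each centred on its own mean. Fcer1a and Ms4a2 were closer to each other (0.141) than Fcer1a was to any of the 12178 genes compared outside the members, of which the nearest were Myo1d (0.176), Sept1 (0.224) and Celsr1 (0.225). The nearest to Ms4a2 were Sept1 (0.149), Cyp11a1 (0.174) and Celsr1 (0.188). Cd200r3 was nearest to Grm6 (0.126), the histamine enzyme gene Hdc (0.167) and Btla (0.212), and farther from Fcer1a (0.381). The members' own spread over libraries was 1.25 for Fcer1a, 1.21 for Ms4a2 and 1.01 for Cd200r3.

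The remaining members varied less, so that their distances are small by construction. Fcgr1, with a spread of 0.533, was nearest to Pltp (0.181), Sdc3 (0.191) and Kdr (0.216). Fcgr2b (spread 0.194) was nearest to Slc46a3 (0.0639), Spire1 (0.0657) and Casp6 (0.0684), and lay 0.0992 from Fcgr3. Fcgr3 (0.118) was nearest to Ms4a6d (0.032), a gene of the same family as the IgE receptor beta chain, then Erlin2 (0.038) and Lig4 (0.0406). Fcgr4 (0.29) was nearest to Adgra3 (0.0959), Calr (0.0993) and Nod1 (0.104). The genes near Fcer1g (0.0884) included Tor1a (0.0289) and Pias4 (0.0316).

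Of 30 genes that carry the activating signal of the IgE receptor, 1 rose and 1 fell with ETV6-NCOA2 (median log2 fold change 0.03, against 0.01 over all tested genes). In that comparison 2.84% of all tested genes were called. With KAT6A-NCOA2 4 rose and 6 fell (-0.01, against 0.02), where 25.4% of all tested genes were called. Sphk1, which makes sphingosine 1-phosphate, rose with both (0.68, limma adjusted p = 0.031, and 0.92, adjusted p = 0.0013). With KAT6A-NCOA2 the protein kinase C gene Prkcb (-1.44, adjusted p = 0.0075) and the phospholipase gene Plcg1 (-0.69, adjusted p = 0.003) fell.

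Of 21 brakes on Fc receptor signalling, 0 were called with ETV6-NCOA2 (median 0.19), and 10 rose and 1 fell with KAT6A-NCOA2 (0.29), where 11.6% of all tested genes were called higher. The rises included the adaptor Dok2 (0.72, limma adjusted p = 0.011), the sialic acid receptor Cd33 (0.57, 0.029), Sirpa, a receptor for CD47 (0.50, 0.02), and Milr1, a mast cell inhibitory receptor (0.43, 0.0085). Of 17 genes of IgG-driven phagocytosis and the oxidase, 1 rose and 1 fell with ETV6-NCOA2 (0.16), and 9 rose and 2 fell with KAT6A-NCOA2 (0.24). There the oxidase subunit gene Cybb (0.69, 0.016) and the kinase gene Fgr (0.56, 0.014) rose, and the GTPase gene Rac2 (-0.55, 0.0047) fell. Elmo1, which helps activate Rac, fell with both fusions (-0.40, 0.032, and -0.53, 0.0016).

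Of 16 genes of granule release and lipid mediators, 0 were called with ETV6-NCOA2 (median -0.03). With KAT6A-NCOA2 2 rose and 4 fell (-0.04), where 25.4% of all tested genes were called. Alox5, which starts leukotriene synthesis, fell with KAT6A-NCOA2 (-1.29, limma adjusted p = 0.0049), as did Rab27a, which docks granules (-0.63, 0.022), while Ptgs1, a cyclooxygenase, and the syntaxin gene Stx4a rose (0.48, 0.015, and 0.26, 0.018). Of 15 tested adaptors with a signalling motif like that of the gamma chain, and their other receptors, 0 were called with ETV6-NCOA2 (0.19). With KAT6A-NCOA2 7 rose and 2 fell (0.41), where 11.6% of all tested genes were called higher and 13.7% lower. Trem3 fell (-2.38, 0.0011) while Cd300lb (0.80, 0.0019), Cd300ld (0.76, 0.0039) and Trem2 (0.65, 0.0084) rose.

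**Figure D5:**
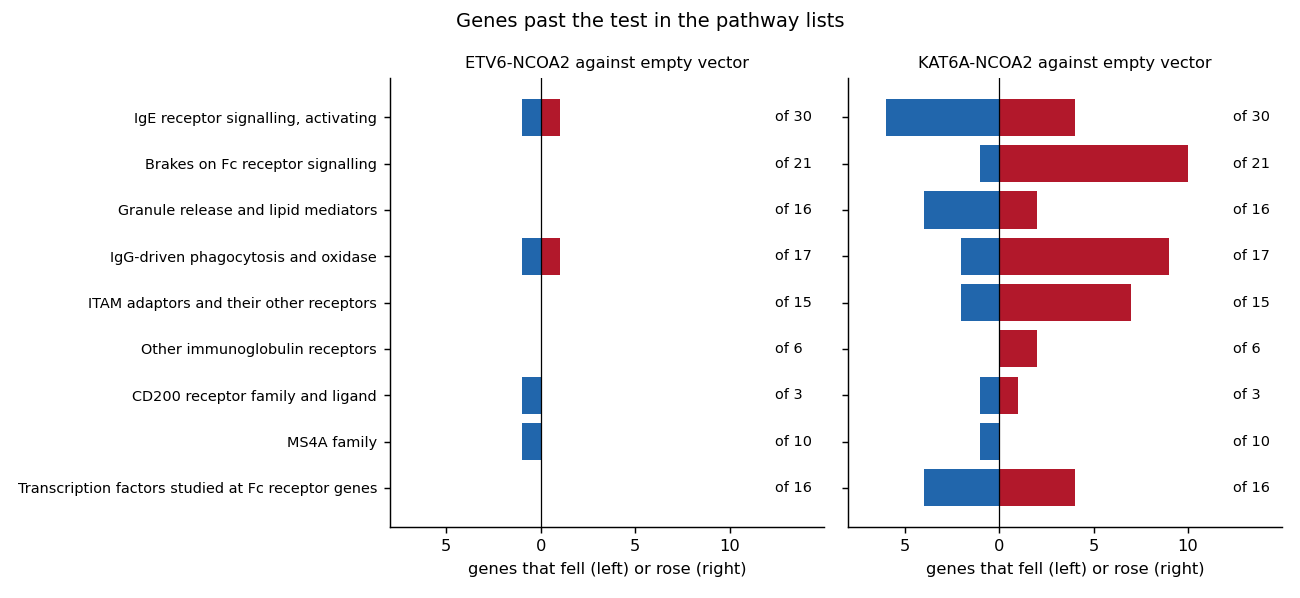
Number of genes past the test (limma adjusted p below 0.05) in each pathway list, those that fell to the left of 0 and those that rose to the right, for each fusion against the shared empty vector libraries. With KAT6A-NCOA2 10 of 21 brakes and 9 of 17 phagocytosis and oxidase genes rose, where 11.6% of all tested genes were called higher. With ETV6-NCOA2 no list has more than 1 gene in either direction.

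Relatives of the members were looked at gene by gene. Cd200r4, another activating receptor of the CD200 receptor family, had 1708, 1178 and 1116 normalized counts in empty vector cells, 849, 708 and 738 in ETV6-NCOA2 cells, and 831, 747 and 727 in KAT6A-NCOA2 cells. Like Cd200r3, it was higher in the empty vector libraries than in all others, and it fell with both fusions (-0.78, limma adjusted p = 0.023, and -0.77, adjusted p = 0.0043). The inhibitory receptor gene Cd200r1 was not called (-0.07 and 0.16). The ligand gene Cd200 rose with KAT6A-NCOA2 (1.38, adjusted p = 0.0047) and had a value of 1.08 with ETV6-NCOA2 that was not called (adjusted p = 0.059). Of these 3 tested genes, 0 rose and 1 fell with ETV6-NCOA2, where 2.84% of all tested genes were called. With KAT6A-NCOA2 1 rose and 1 fell, where 25.4% of all tested genes were called. Cd200r2 was too low to be tested.

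With ETV6-NCOA2 and KAT6A-NCOA2 in turn, 1.82% and 13.7% of all tested genes were called lower. Of 10 other MS4A genes, which are relatives of Ms4a2, 1 fell with each fusion and 0 rose (medians 0.00 and -0.04). That gene was Ms4a3, which is known from granulocyte and monocyte progenitors, with 1080.1, 581 and 900.4 normalized counts in empty vector cells, 354, 361 and 247 in ETV6-NCOA2 cells, and 79.5, 38.9 and 56.1 in KAT6A-NCOA2 cells. The 3 groups did not overlap, and its log2 fold changes were -1.38 (limma adjusted p = 0.032) and -3.86 (adjusted p = 4.3e-05). Of 6 other immunoglobulin receptors, 0 were called with ETV6-NCOA2 (median 0.24). With KAT6A-NCOA2 2 rose (0.13), where 11.6% of all tested genes were called higher. The 2 were Fcrlb (0.82, adjusted p = 0.034) and Lgals3, a galectin that binds IgE (0.66, 0.027). Tyrobp, which encodes the partner of the Cd200r3 product, was not called (0.07 and 0.15).

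Of 16 transcription factors studied at Fc receptor genes, 0 were called with ETV6-NCOA2 (median 0.01). With KAT6A-NCOA2 4 rose and 4 fell (-0.05), where 25.4% of all tested genes were called. Gata2 had 10943, 5274 and 7959 normalized counts in empty vector cells, 4539, 3945 and 3336 in ETV6-NCOA2 cells, and 2371, 1413 and 1385 in KAT6A-NCOA2 cells. The groups did not overlap, as for Ms4a2. It fell with KAT6A-NCOA2 (-2.21 ± 0.26 SE, limma adjusted p = 0.00052) and had a value of -0.98 ± 0.26 with ETV6-NCOA2 that was not called (adjusted p = 0.073). It was also higher with ETV6-NCOA2 than with KAT6A-NCOA2 (1.23 ± 0.26, adjusted p = 0.032). Gata1, the related factor of red cells and mast cells, was not called (-0.08 and -0.19). With KAT6A-NCOA2 Ikzf1 (-0.97, 0.0007) and Stat5a (-0.62, 0.0027) fell and Cebpb (0.67, 0.0082) rose. Whether any of these factors acts on the Fc receptor genes was not tested.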

How the data were processed

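The authors deposited a table of normalized counts, a signal made from read counts divided by 1 size factor per library. The submitters' processing notes list STAR 2.4.2a, cutadapt, HTSeq and DESeq2 as tools and GRCm38 as genome, with no order of steps. In each library 100% of the values were whole multiples of 1 step within 0.01, which gave back the reads. The lowest maximum of any gene was 5.22, so lower genes were left out by a rule not given in the sources used here.

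Values were tested as log2(value + 1) with limma 3.58.1 (lmFit, eBayes with a trend) in R 4.3.3, fitting the 9 libraries together with a coefficient for each group. The test covered 13750 genes that reached 10 or more in 3 or more libraries (3516 were left out), and p-values were adjusted by Benjamini-Hochberg over all tested genes of a comparison. Calls needed an adjusted p below 0.05. All fold changes are on the log2(value + 1) scale, which understates those of low genes. On the recovered reads edgeR 4.0.16 (quasi-likelihood test with TMM factors) called 506 genes for ETV6-NCOA2 against empty vector, and DESeq2 1.42.0 and limma-voom were further alternatives. The model was also run on simulated counts, drawn independently for each library, with changes planted in some genes. The outcome is not given here, and such counts cannot show how a pairing of libraries would affect the calls.

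Lengths come from GENCODE M21 on GRCm38, in which 16720 symbols (96.8%) had 1 match, and promoters from RefSeq on GRCm38.p6. The members and lists were chosen with earlier results of these data known. The genes named are the members, up to 4 called genes with the largest change against empty vector from each pathway list and from the mast cell, basophil and macrophage lists, and the 3 genes most like each member. Lyz2, Gata1, Tyrobp, Srgn, Slc18a2, Csf1 and Il3ra are named outside that rule, with their values known. A few genes that the rule picks are left out of the text but stay in all counts.

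Replicate numbers from the labels were checked as pairs by correlating deviations from group means across genes. For numbers 1, 2 and 3 the correlations were 0.30, 0.20 and 0.29 between ETV6-NCOA2 and KAT6A-NCOA2, 0.31, 0.05 and -0.08 between empty vector and ETV6-NCOA2, and 0.39, 0.17 and -0.03 between empty vector and KAT6A-NCOA2. Libraries with unequal numbers were not correlated, so these values cannot show that equal numbers are pairs. Blocked values are given beside the comparison of the fusions, apart from the main fit.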

Additional observations from a re-analysis of the deposited data

How the results depend on the processing

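The falls of Fcer1a, Ms4a2 and Cd200r3 with KAT6A-NCOA2 were called in all 20 alternatives, and those with ETV6-NCOA2 in 15. Over all members and comparisons, 441 of 480 recomputed log2 fold changes kept direction and call, 17 became called, 15 lost the call and 7 turned sign. The signs that turned belonged to values near 0. Cd200r3 for ETV6-NCOA2 against KAT6A-NCOA2 ran from -0.09 to 0.61 when a library was left out, with -0.02 without ETV6-NCOA2 replicate 1 and -0.09 without KAT6A-NCOA2 replicate 3. Without ETV6-NCOA2 replicate 1 Fcer1g was -0.01 (range -0.01 to 0.11) and Fcgr4 -0.03 (-0.03 to 0.36) in that comparison. Against empty vector with ETV6-NCOA2, Fcgr2b was -0.03 without empty vector replicate 1 or ETV6-NCOA2 replicate 3 (range to 0.17), and Fcgr3 -0.01 without empty vector replicate 1 (range to 0.11). The cause was not tested.

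Counts of called genes moved more. For ETV6-NCOA2 against empty vector (390) they were 1016 with DESeq2, 174 with only the 6 libraries compared and 61 to 1765 with a library left out. For KAT6A-NCOA2 against empty vector (3488) they were 1779 to 4320 with a library left out. For ETV6-NCOA2 against KAT6A-NCOA2 (425) they were 793 with DESeq2, 823 with only the 6 libraries and 163 to 913 with a library left out. Members called ranged, with a library left out, from 0 to 4 of 8, from 3 to 4 and from 0 to 1 in these comparisons, and 1 was called in the comparison of the fusions with only their 6 libraries.

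With the replicate number as a block, 1255 genes were called for ETV6-NCOA2 against empty vector and 983 for the fusions against each other. The block called 4 members with ETV6-NCOA2 against empty vector, with Fcgr1 added (adjusted p = 0.0378), and 2 in the comparison of the fusions. With KAT6A-NCOA2 against empty vector it added Fcgr2b (0.0393) and Fcgr4 (0.0125). In that comparison 25.4% of all tested genes were called even without the block. With the block and only the 6 libraries, an alternative added after seeing the data, 2053 genes and 3 members (Fcer1a, Ms4a2 and Fcgr1) were called between the fusions. With KAT6A-NCOA2 against empty vector that fit called 5 members, of which Fcgr1 (0.0403) was new and Fcgr2b (0.0652) was no longer one. In the block fit of all 9 libraries, the falls of Fcer1a, Ms4a2 and Cd200r3 with ETV6-NCOA2 had limma adjusted p of 0.000438, 0.00172 and 0.000438. Empty vector and fusion libraries deviated together for number 1 (correlations 0.31 and 0.39) but not for number 3 (-0.08 and -0.03). The labels do not settle whether equal numbers are pairs, so these calls are given apart from the main fit. Between 17.1 and 20.4 M reads lie behind each library, and the lowest value of any member was 159 normalized counts.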
